A study of Mus musculus with 10 samples.

Results

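The levels of 10 genes of glutathione synthesis and of the response driven by the transcription factor NRF2 were compared between livers of mice lacking Etnppl and livers of wild-type mice. The genes are Nfe2l2, Keap1, Gclc, Gclm, Gss, Gsr, Nqo1, Txnrd1, Srxn1 and Hmox1. They were chosen by gene symbol, each symbol matched 1 row, and they make up 10 of the 47729 genes listed and 10 of the 12395 genes that passed the filter for testing. Etnppl encodes ethanolamine-phosphate phospho-lyase, which breaks down phosphoethanolamine. The samples are livers of female mice, 5 with a whole-body Etnppl knockout (KO) and 5 wild-type (WT) at Etnppl. Every mouse had 8 weeks of chow followed by 10 weeks of a high-fat diet (45% kcal fat), and no group on chow alone enters the comparison. The sources used here give neither the strain nor the part of Etnppl that was deleted. They also do not say that each numbered replicate is a separate animal, and the p-values therefore cover the spread between these samples, which may be technical.

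Glutathione is a tripeptide of glutamate, cysteine and glycine that hepatocytes make in large amounts to reduce peroxides and to conjugate reactive compounds. Its synthesis begins with glutamate-cysteine ligase, an enzyme of a catalytic subunit, encoded by Gclc, and a modifier subunit, encoded by Gclm, and ends with glutathione synthetase, encoded by Gss. NRF2, the product of Nfe2l2, is held at low levels by KEAP1, which hands it to a ubiquitin ligase. When KEAP1 is modified by electrophiles or oxidants, NRF2 accumulates and activates genes that carry antioxidant response elements near their start, among them Gclc, Gclm, Gsr, Nqo1, Txnrd1, Srxn1 and Hmox1.

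The values are FPKM, fragment numbers corrected for the length of a transcript and for sequencing depth, and the step sizes of low values gave an estimated depth of 21100000 to 28200000 fragments per library. Etnppl transcript levels were 8.69 ± 1.16 FPKM in the KO and 36.9 ± 11.5 FPKM in the WT libraries (mean ± SD, n = 5 each) and did not overlap, which matches the labels. Hepatocyte markers dominated every library, with Alb at 38646 and Apoa1 at 9851 FPKM in WT, and 10 of 11 of them were higher in KO (summed level 68699 to 79685 FPKM in WT and 76301 to 87819 FPKM in KO). Of these, Tat (log2 fold change 0.98), Cps1 (0.49) and Ahsg (0.28), named after their values were seen, had an unadjusted p under 0.05. Among all genes tested, 2.69% were higher in KO at that threshold. None of the 3 passed after adjustment by limma (adjusted p = 0.126, 0.199 and 0.266). The genotypes did not overlap for Tat and Cps1, beside 0.581% of all genes tested without overlap and higher in KO. No marker list had a gene listed at 0 in all libraries. Of 12 Kupffer cell and macrophage markers, 10 were lower in KO, with summed levels of 441 to 604 FPKM in WT and 393 to 572 FPKM in KO. Among the other lists, 6 of 9 sinusoidal endothelial, 9 of 10 stellate cell and 3 of 4 cholangiocyte markers tested were lower in KO. So were 5 of 6 lymphocyte and 4 of 5 erythroid markers. These counts stand beside 65.1% of all genes tested that were lower in KO. In the macrophage list and these other lists, no gene lower in KO had an unadjusted p under 0.05. In the higher direction 1 gene did, in the macrophage list. In bulk liver, fewer cells of a type and less RNA per cell cannot be told apart, and the part of these markers in the results was not tested.

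The NRF2 gene itself and several of its targets were lower in KO livers by small amounts. On the fitted log2 scale, 9 of the 10 genes were lower in KO and 1, Gsr, was higher, with a median log2 fold change of -0.18. Among all genes tested 65.1% were lower in KO and the median was -0.05. By limma, a moderated linear model fitted to all genes, 0 of the 10 passed an adjusted p of 0.05, a threshold that 0.0645% of all genes tested passed. At an unadjusted p under 0.05 there were 5, all lower in KO: Nfe2l2, Gclc, Nqo1, Txnrd1 and Srxn1. That compares with 9.07% of all genes tested that were lower at that threshold and 2.69% that were higher. The first 3 kept an unadjusted p under 0.05 in all 20 refits at other settings, Txnrd1 in 11 and Srxn1 in 9. The count of 5 became 3 with median-of-ratios scaling, with quantile normalization and with rescaling to a fixed sum, and 3 without KO replicate 1 or 4 or without WT replicate 1 or 5. Of all genes tested, 5.18%, 5.48% and 7.63% were lower at that threshold under these 3 scalings. Without 1 of these libraries it was 7.11% to 8.12%. Median-of-ratios scaling also changed the background, from 334 higher and 1124 lower genes at an unadjusted p under 0.05 to 644 higher and 642 lower. In each of the 20 refits 9 of the 10 genes were lower and 1 was higher. The share of all genes tested that were lower ran from 51.5% with median-of-ratios scaling to 67.5% without KO replicate 5.

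**Figure D1:**
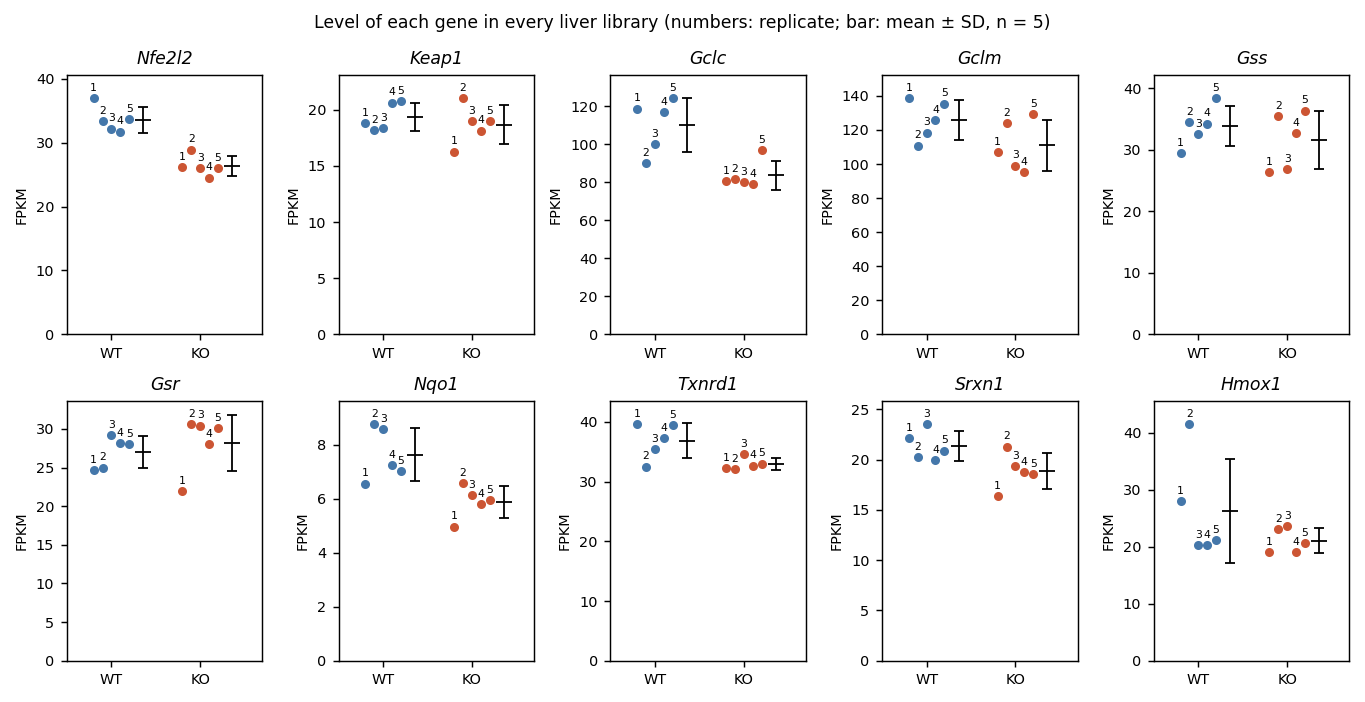
FPKM of the 10 genes (vertical axes, each from 0) in the 5 WT and 5 KO liver libraries, with the replicate number above each point and the mean ± SD to the right. The KO points of Nfe2l2 all lie below its WT points, and those of Gclc and Nqo1 do so except for 1 KO library each.

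The stretches before the start site are shown for the 4 genes with a match, because the antioxidant response element is what NRF2 targets share in the textbook account. Of these, 3 matched the core of the element as first searched, and Srxn1 matched only the form added later. RefSeq windows (GRCm38.p6) matched 7 of the 10 genes, in 9 windows. Nqo1, Keap1 and Gss had windows without a match in the 250 bases before the start, and bases farther upstream were not searched. Gclc, Gsr and Hmox1 had no window. The motif searched was TGACNNNGC on both strands, with TGAGNNNGC added after the first search. Of 32851 windows of the same length, 10.2% hold the former and 14.4% the latter, and 2.47% hold the first motif followed directly by A, a longer form that contains it. Of the 9 windows here, 3 hold the former, 1 the latter and 1 the longer form, and no test was run on these counts. Each sequence below runs 5′ to 3′ on the gene's strand, capitals mark the matches, and a match on the opposite strand is shown as its reverse complement.
Nfe2l2, chr2:75704664-75704913, minus strand: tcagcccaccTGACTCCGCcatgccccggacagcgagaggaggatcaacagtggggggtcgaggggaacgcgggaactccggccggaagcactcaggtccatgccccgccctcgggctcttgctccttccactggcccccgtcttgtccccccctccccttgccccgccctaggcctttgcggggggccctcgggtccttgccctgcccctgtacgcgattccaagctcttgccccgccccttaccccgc
Gclm, chr3:122245307-122245556, plus strand: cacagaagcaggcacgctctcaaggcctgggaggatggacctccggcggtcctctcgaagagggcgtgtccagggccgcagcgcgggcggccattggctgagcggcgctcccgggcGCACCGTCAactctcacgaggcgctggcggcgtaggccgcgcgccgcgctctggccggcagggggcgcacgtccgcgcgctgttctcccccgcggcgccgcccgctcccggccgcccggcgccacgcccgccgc
Txnrd1, chr10:82858956-82859205, plus strand: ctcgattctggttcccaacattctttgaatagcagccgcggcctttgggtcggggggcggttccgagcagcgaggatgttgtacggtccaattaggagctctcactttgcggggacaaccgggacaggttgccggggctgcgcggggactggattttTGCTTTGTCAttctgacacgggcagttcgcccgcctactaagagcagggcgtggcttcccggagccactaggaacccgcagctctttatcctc
Srxn1, chr2:152105274-152105523, plus strand: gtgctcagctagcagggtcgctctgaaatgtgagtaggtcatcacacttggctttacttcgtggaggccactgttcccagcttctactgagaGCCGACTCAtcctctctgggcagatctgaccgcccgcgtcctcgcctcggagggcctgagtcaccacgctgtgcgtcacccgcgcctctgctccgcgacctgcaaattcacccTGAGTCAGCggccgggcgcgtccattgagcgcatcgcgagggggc
In Nfe2l2 the match is TGACTCCGC on the gene's strand, opening 240 bases before the start. In Gclm it is TGACGGTGC on the opposite strand, reaching to 134 bases before the start. The Txnrd1 window, 1 of 3 for that gene, holds the longer form, TGACAAAGCA, on the opposite strand, reaching to 93 bases before the start. Srxn1 has TGAGTCGGC on the opposite strand and TGAGTCAGC on its own strand, the latter opening 45 bases before the start. A match describes letters in the window and not a bound site.

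Among the regulators, Nfe2l2 (ENSMUSG00000015839, minus strand of chromosome 2, 75675513 to 75704641, GRCm38) was the gene of lowest p, at rank 20 of all genes tested. Its WT libraries were at 36.94, 33.40, 32.19, 31.72 and 33.65 FPKM in replicates 1 to 5. Its KO libraries were at 26.20, 28.91, 26.01, 24.52 and 25.97 FPKM. Every KO library lay below every WT library. KO livers held 78.4% of the WT mean, and the log2 fold change was -0.35 (95% CI -0.48 to -0.21, limma adjusted p = 0.0795). By exact permutation of the 10 libraries (two-sided), p was 0.00794, the lowest value this design can give. Over the 20 refits its adjusted p ran from 0.0523 to 0.160 and its log2 fold change from -0.38 to -0.30. Nfe2l2 was the 1 gene of the 10 whose genotypes did not overlap, against 2.21% of all genes tested without overlap and lower in KO, 0.581% without overlap and higher, and 2.79% in either direction.

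Keap1 (ENSMUSG00000003308, minus strand of chromosome 9, 21229730 to 21239361), the adaptor that directs NRF2 to degradation, had a small difference with an interval that includes 0. The WT libraries were at 18.79, 18.17, 18.36, 20.62 and 20.76 FPKM and the KO libraries at 16.27, 21.02, 18.98, 18.13 and 18.96 FPKM. Both the lowest and the highest of the 10 values came from KO. Its exons share 510 bases with the antisense gene Gm16754, which was at 0.049 FPKM over all libraries. The log2 fold change was -0.05 with a 95% CI of -0.22 to 0.11 (limma adjusted p = 0.826). It was -0.00468 without KO replicate 1 and -0.0946 without KO replicate 2, and -0.00194 with median-of-ratios scaling. Within each library, the ratio of Nfe2l2 to Keap1 ran from 1.53 to 1.94 in WT and from 1.34 to 1.59 in KO, and 4 of 5 KO libraries lay below all WT libraries. The log2 ratio differed by -0.29 in KO against WT, 1.23-fold higher in WT (exact two-sided permutation p = 0.0159, adjusted over 2 ratios 0.0159). Keap1 differed little, so this test largely repeats the one on Nfe2l2 and is not separate support. The 2 ratios were chosen with earlier results of these data known. With same-numbered libraries taken as pairs, the exact paired p was 0.0625, the smallest that 5 pairs allow.

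For glutamate-cysteine ligase, the catalytic subunit gene Gclc (ENSMUSG00000032350, plus strand of chromosome 9, 77754535 to 77794485) had the largest fitted difference of the 10 genes with all libraries in. Nqo1 exceeded it without WT replicate 1 (-0.39 against -0.36), without WT replicate 5 (-0.37 against -0.34) and, by a small margin, without KO replicate 2. Nfe2l2 exceeded Gclc by a small margin without WT replicate 4 (-0.365 against -0.363) and without WT replicate 5 (-0.344 against -0.341). WT libraries were at 118.80, 90.14, 100.34, 116.92 and 124.33 FPKM and KO libraries at 80.52, 81.88, 80.15, 78.93 and 97.15 FPKM. KO replicates 1 to 4 sat close together below all WT values, and KO replicate 5 lay above WT replicate 2. KO livers held 76.0% of the WT mean (log2 fold change -0.39, 95% CI -0.59 to -0.18, limma adjusted p = 0.143, exact two-sided permutation p = 0.0159). Without WT replicate 2 the groups did not overlap, the log2 fold change was -0.46 and the adjusted p was 0.0640. Over all 20 refits the adjusted p ran from 0.0640 to 0.284.

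The modifier subunit gene Gclm (ENSMUSG00000028124, plus strand of chromosome 3, 122245557 to 122270732) differed less. Its WT libraries were at 138.66, 110.76, 118.44, 125.79 and 135.47 FPKM and its KO libraries at 107.16, 123.99, 99.03, 95.46 and 129.52 FPKM. KO replicates 1, 3 and 4 were below all WT values, whereas KO replicates 2 and 5 were inside the WT range. On the log2 scale the KO-to-WT difference was -0.19 (95% CI -0.39 to 0.02, limma adjusted p = 0.466). The ratio of Gclc to Gclm was 0.857, 0.815, 0.848, 0.930 and 0.918 in WT replicates 1 to 5 and 0.753, 0.662, 0.810, 0.828 and 0.751 in KO. It was 1.15-fold higher in WT, with 4 of 5 KO libraries below all WT libraries (exact two-sided permutation p = 0.0159, adjusted over 2 ratios 0.0159). With same-numbered libraries taken as pairs, the exact paired p of this ratio was also 0.0625. The ratio draws on the same Gclc values as the test above and is not separate support. Exons of Gclm share 244 bases on the same strand with the pseudogene Gm6061, whose means were 2.36 (WT) and 2.27 (KO) FPKM. They share 296 bases on the opposite strand with Gm17494, at 0.015 FPKM over all libraries.

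**Figure D2:**
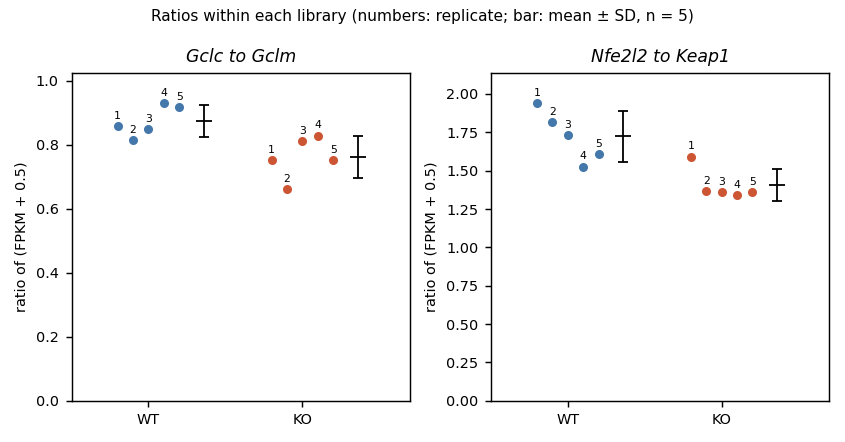
Ratio of Gclc to Gclm and of Nfe2l2 to Keap1 within each library, from FPKM + 0.5 (vertical axes from 0), with replicate numbers and the mean ± SD of 5 libraries. In both panels 4 of the 5 KO libraries lie below all WT libraries, with KO replicate 4 inside the WT range for Gclc to Gclm and KO replicate 1 for Nfe2l2 to Keap1.

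Gss (ENSMUSG00000027610, minus strand of chromosome 2, 155563181 to 155592810), which adds glycine to complete glutathione, overlapped widely between the genotypes. Values were 29.41, 34.49, 32.60, 34.26 and 38.39 FPKM in WT and at 26.43, 35.48, 26.89, 32.66 and 36.35 FPKM in KO. KO replicates 1 and 3 were the lowest of all, and the other KO libraries lay within the WT range. Its log2 fold change was -0.11 (95% CI -0.33 to 0.12, limma adjusted p = 0.728), and without KO replicate 1 it was -0.05. Exons of Gss share 395 bases, 6.68% of its exon bases, with Acss2 on the opposite strand, which averaged 17.2 FPKM in WT and 22.0 FPKM in KO livers. The libraries were made with a directional protocol, but no source used here says whether strand was used in counting, and reads from such shared parts cannot then be told apart.

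Among the enzymes that keep thiols reduced, none passed after adjustment. Gsr (ENSMUSG00000031584, plus strand of chromosome 8, 33652523 to 33698163), which encodes the reductase that returns oxidised glutathione to its reduced form, was at 24.69, 24.99, 29.20, 28.20 and 28.04 FPKM in WT. The KO libraries were at 21.98, 30.57, 30.43, 27.99 and 30.05 FPKM. KO replicates 2, 3 and 5 were above all WT values and KO replicate 1 was below them all. The log2 fold change was 0.05 (95% CI -0.15 to 0.26, limma adjusted p = 0.860), and 0.14 without KO replicate 1 (adjusted p = 0.521).

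Txnrd1 (ENSMUSG00000020250, plus strand of chromosome 10, 82833951 to 82897712), the cytosolic thioredoxin reductase and a selenoprotein, was at 39.55, 32.50, 35.47, 37.22 and 39.41 FPKM in WT. Its KO libraries were at 32.24, 32.04, 34.57, 32.67 and 32.98 FPKM. The KO values were close together (CV 3.05%, against 8.01% in WT). Above them all lay 4 of 5 WT libraries, and WT replicate 2 was inside the KO range. The log2 fold change was -0.16 (95% CI -0.30 to -0.02, limma adjusted p = 0.356, exact two-sided permutation p = 0.0317). With median-of-ratios scaling it was -0.11 at an unadjusted p of 0.136.

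Srxn1 (ENSMUSG00000032802, plus strand of chromosome 2, 152105516 to 152111376), which encodes sulfiredoxin, the enzyme that repairs overoxidised peroxiredoxins, was at 22.10, 20.22, 23.49, 19.96 and 20.90 FPKM in WT. The KO libraries were at 16.40, 21.29, 19.34, 18.75 and 18.56 FPKM. KO replicates 1, 3, 4 and 5 were below all WT values and KO replicate 2 was inside the WT range. The log2 fold change was -0.18 (95% CI -0.34 to -0.01, limma adjusted p = 0.398, exact two-sided permutation p = 0.0397). Without KO replicate 1 it was -0.13 at an unadjusted p of 0.102.

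Nqo1 (ENSMUSG00000003849, minus strand of chromosome 8, 107388225 to 107403206), the quinone reductase often read as the standard NRF2 target, had the lowest level of the 10 genes. It was at 6.57, 8.76, 8.59, 7.26 and 7.03 FPKM in WT and at 4.97, 6.58, 6.15, 5.81 and 5.96 FPKM in KO. The groups met only where KO replicate 2 slightly exceeded WT replicate 1. KO livers held 77.1% of the WT mean (log2 fold change -0.35, 95% CI -0.56 to -0.13, limma adjusted p = 0.1997, exact two-sided permutation p = 0.0159). Over the 20 refits the adjusted p ran from 0.166 to 0.317. At its longest coding transcript of 1553 bases these levels stand for about 190 to 330 fragments per library, a counting CV of 7.26% at the lowest, against 12.8% between WT and 10.0% between KO libraries. The other 9 genes had at least about 680 fragments per library by the same estimate.

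Hmox1 (ENSMUSG00000005413, plus strand of chromosome 8, 75093621 to 75100589), which encodes the inducible haem oxygenase that macrophages use to clear haem from red cells, differed mainly through 1 library. WT libraries were at 28.00, 41.44, 20.34, 20.29 and 21.11 FPKM and KO libraries at 19.03, 23.02, 23.68, 19.05 and 20.67 FPKM. WT replicates 2 and 1 stood above all KO libraries and the other WT libraries were inside the KO range. The log2 fold change was -0.26 (95% CI -0.65 to 0.13, limma adjusted p = 0.609) and -0.08 without WT replicate 2 (adjusted p = 0.830). The summed erythroid markers in WT replicate 2 were at 789 FPKM, against 434 to 538 FPKM in the other WT libraries, and its Kupffer cell and macrophage markers were at 590 FPKM, against 441 to 604 FPKM. Their part in the Hmox1 value was not tested.

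**Figure D3:**
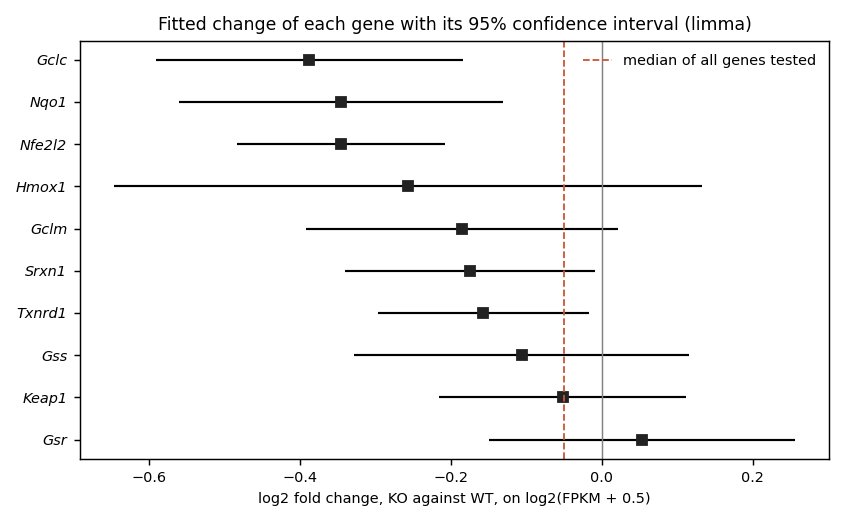
Fitted log2 fold change of each gene (KO against WT, horizontal axis) with its 95% confidence interval from limma; the dashed line is the median of all 12395 genes tested, -0.05. The intervals of Gclc, Nqo1, Nfe2l2, Srxn1 and Txnrd1 end below 0 and those of the other 5 genes include it.

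Per transcript length, the ligase subunits were the most abundant of the 10 in WT livers, Gclm at 126 ± 11.6 FPKM and Gclc at 110 ± 14.3 FPKM. Txnrd1 at 36.8 ± 2.95 FPKM, Gss at 33.8 ± 3.26 FPKM and Nfe2l2 at 33.6 ± 2.04 FPKM formed the next level. Gsr at 27.0 ± 2.05 FPKM, Hmox1 at 26.2 ± 9.09 FPKM, Srxn1 at 21.3 ± 1.46 FPKM and Keap1 at 19.3 ± 1.25 FPKM followed, and Nqo1 was last at 7.64 ± 0.977 FPKM, 16.5 times below Gclm. The WT ranges of neighbours in this order did not overlap between Gclc and Txnrd1, between Nfe2l2 and Gsr and between Keap1 and Nqo1, and overlapped at every other step. In KO livers the means were 111 ± 15.1 FPKM for Gclm and 83.7 ± 7.58 FPKM for Gclc, and Nfe2l2, at 26.3 ± 1.60 FPKM, was below Gsr, at 28.2 ± 3.63 FPKM.

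The libraries did not contribute evenly. KO replicate 1 was the lowest of the 10 libraries for 6 of the genes and among the lowest 3 for 9, and KO replicate 4 was the lowest for 3 and among the lowest 3 for 7. KO replicate 2 had 2 genes at their highest and 1 at its lowest, and WT replicates 1 and 5 were among the highest 3 for 6 genes each. KO replicate 1 also had the lowest median-of-ratios size factor, 0.925, against 0.984 to 1.04 in the other libraries, and a low size factor means that the FPKM of its median gene were low. Without it, the log2 fold changes were -0.34 for Nfe2l2, -0.37 for Gclc and -0.29 for Nqo1.

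**Figure D4:**
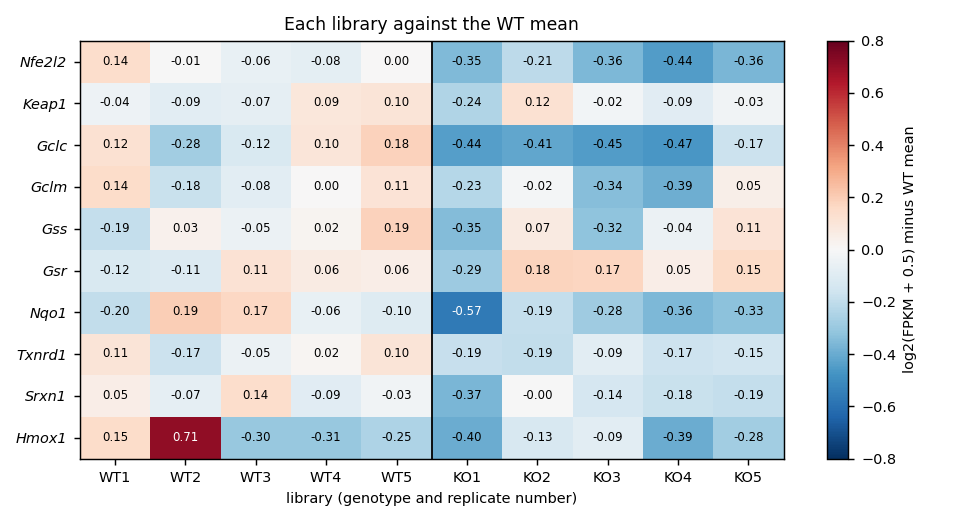
Difference of each library from the WT mean on log2(FPKM + 0.5), genes in rows and the 10 libraries in columns, WT left of the line. Nfe2l2, Gclc, Nqo1, Txnrd1, Srxn1 and Hmox1 are below the WT mean in all 5 KO libraries, Srxn1 by little in KO replicate 2, and the highest value is Hmox1 in WT replicate 2.

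Correlations between the genes over the 10 libraries were computed for 45 pairs. The p-values pool the genotypes, so a genotype difference shared by both genes of a pair enters them. No p was computed after centring. Gclc and Txnrd1 had the highest pooled Pearson r, 0.891 (permutation p = 0.00107, adjusted over 45 pairs 0.0481), with Spearman rho = 0.745 (permutation p = 0.0169, adjusted 0.201). Without WT replicates 1 and 5, the farthest from the median of Gclc, r was 0.767, and after centring each genotype on its mean it was also 0.767. Gclc and Gclm, the subunits of 1 enzyme, had r = 0.826 (permutation p = 0.00485, adjusted 0.109) and rho = 0.903 (permutation p = 0.00079, adjusted 0.0355), the highest rho of the 45 pairs. Their r was 0.701 without WT replicates 1 and 5 and 0.792 after centring. For Nqo1 and Srxn1, r was 0.765 (permutation p = 0.0109, adjusted 0.144), rho 0.709 (permutation p = 0.0267, adjusted 0.228), and r was 0.814 without WT replicate 2 and KO replicate 1 and 0.545 after centring. The genotypes of Nfe2l2 did not overlap, so no pooled value is given for its pairs, and no test was run within a genotype of 5 libraries. After centring, its r was 0.60 with Gclm, 0.403 with Srxn1, 0.183 with Gclc and -0.112 with Nqo1, given as a description. Over all 45 pairs the median r after centring was 0.232, and 31 pairs were positive. The lowest were Nqo1 with Txnrd1 (-0.632), Gclc with Nqo1 (-0.563) and Gclc with Hmox1 (-0.511), so the NRF2 targets did not all vary together within genotypes.

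Other genes of the pathway were counted by list. The list of 12 genes that pair with NRF2 or control it had 10 lower and 2 higher in KO, with a median log2 fold change of -0.08. The 2 higher genes were those at an unadjusted p under 0.05, beside 2.69% of all genes tested that were higher and 9.07% that were lower, and none passed after adjustment by limma. Mafg, a small MAF protein that pairs with NRF2 on DNA, was at 25.0 ± 1.37 (WT) and 31.4 ± 4.48 (KO) FPKM (log2 fold change 0.32, limma adjusted p = 0.1997), with 4 of 5 KO libraries above all WT libraries. Btrc, a ubiquitin ligase adaptor that acts on NRF2 apart from KEAP1, was at 2.02 ± 0.148 and 2.47 ± 0.202 FPKM (limma adjusted p = 0.324). Sqstm1, the autophagy receptor p62 that can sequester KEAP1, was at 281 ± 11.7 and 258 ± 26.9 FPKM, and Trim21 at 3.60 ± 0.485 and 3.07 ± 0.395 FPKM.

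For cysteine supply and glutathione breakdown, of 17 genes listed, 15 were tested, 9 were higher and 6 lower in KO, with a median log2 fold change of 0.06. There were 4 at an unadjusted p under 0.05, all higher, against 2.69% of all genes tested, and none passed after adjustment. All 4, given next, belong to cysteine and methionine metabolism, while of the breakdown genes Ggt5, Ggct and Oplah were higher and Chac1, Chac2 and Lap3 lower, none of them at an unadjusted p under 0.05. Cth, cystathionine gamma-lyase, which releases cysteine at the end of transsulfuration, was at 278 ± 60.1 (WT) and 429 ± 70.3 (KO) FPKM (log2 fold change 0.63, SE 0.15, limma adjusted p = 0.143), higher than all WT libraries in 4 of 5 KO libraries. Gnmt, which uses S-adenosylmethionine to methylate glycine, was at 1244 ± 216 and 1543 ± 219 FPKM. Ahcy, which splits S-adenosylhomocysteine, was at 898 ± 114 and 1082 ± 145 FPKM. Cdo1, which oxidises cysteine toward taurine, was at 1167 ± 80.1 and 1338 ± 131 FPKM. These 3 had limma adjusted p-values of 0.324, 0.328 and 0.327.

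In peroxide and thiol reduction, 12 of 26 genes were higher and 14 lower, with a median of -0.02. At an unadjusted p under 0.05 there were 3 lower of 26, beside 9.07% of all genes tested, and 1 higher, beside 2.69%. Glrx3, a glutaredoxin of iron-sulfur cluster handling, was at 24.2 ± 0.956 (WT) and 21.7 ± 0.697 (KO) FPKM without overlap (limma adjusted p = 0.289). The peroxiredoxins Prdx2, at 46.4 ± 1.79 and 40.8 ± 4.71 FPKM, and Prdx1, at 343 ± 11.2 and 308 ± 32.9 FPKM, were lower in KO, and the mitochondrial glutaredoxin Glrx2 was higher, at 14.2 ± 1.34 and 16.5 ± 1.58 FPKM. None of these 3 passed (lowest limma adjusted p = 0.347).

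Among the other NRF2 target genes, 24 of 25 were tested, 10 higher and 14 lower, with a median of -0.11. At an unadjusted p under 0.05 there were 4 lower of 24, beside 9.07% of all genes tested, and 1 higher, beside 2.69%. The microsomal glutathione transferase Mgst1 was at 2084 ± 182 (WT) and 1751 ± 88.6 (KO) FPKM without overlap (log2 fold change -0.25, limma adjusted p = 0.198). Osgin1, an oxidative stress-induced growth inhibitor, was at 34.5 ± 7.57 and 22.5 ± 7.34 FPKM (log2 fold change -0.64, limma adjusted p = 0.278). Entpd5 was at 85.5 ± 10.3 and 71.9 ± 6.46 FPKM. Abcc4, an efflux transporter outside the naming rule and named after its values were seen, was at 1.16 ± 0.183 and 0.882 ± 0.135 FPKM (limma adjusted p = 0.403). Gstm2, a cytosolic glutathione transferase of a family of similar copies whose reads may be split uncertainly, was higher, at 58.5 ± 11.7 and 79.3 ± 16.3 FPKM (limma adjusted p = 0.309).

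NADPH pays for the reductase steps above, and 6 of 10 genes of its supply were lower and 4 higher in KO, with a median of -0.06, and 2 higher and 1 lower had an unadjusted p under 0.05 (2.69% and 9.07% of all genes tested). Aldh1l1, the folate enzyme that oxidises formyl-tetrahydrofolate with release of NADPH, was at 176 ± 17.8 (WT) and 240 ± 27.6 (KO) FPKM without overlap (log2 fold change 0.45, limma adjusted p = 0.101). Mthfd1, of the same folate pathway, was at 57.2 ± 2.90 and 65.7 ± 4.19 FPKM (limma adjusted p = 0.230). Nnt, the mitochondrial transhydrogenase, was at 54.3 ± 2.42 and 48.3 ± 2.25 FPKM without overlap (limma adjusted p = 0.255), and G6pdx, which opens the pentose phosphate pathway, at 3.78 ± 0.651 and 3.25 ± 0.374 FPKM. In haem breakdown and ferritin, 8 of 10 genes were lower, with a median of -0.10. An unadjusted p under 0.05 was reached by 1 higher gene, beside 2.69% of all genes tested, and 1 lower, beside 9.07%. The constitutive haem oxygenase Hmox2 was at 33.0 ± 2.68 (WT) and 37.5 ± 2.45 (KO) FPKM (limma adjusted p = 0.317), and the iron exporter Slc40a1 at 73.3 ± 7.06 and 60.4 ± 11.6 FPKM (limma adjusted p = 0.319). Blvra, a biliverdin reductase, was at 6.89 ± 0.537 and 6.08 ± 0.517 FPKM and Fech, which inserts iron into haem, at 67.0 ± 3.45 and 62.6 ± 3.998 FPKM.

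**Figure D5:**
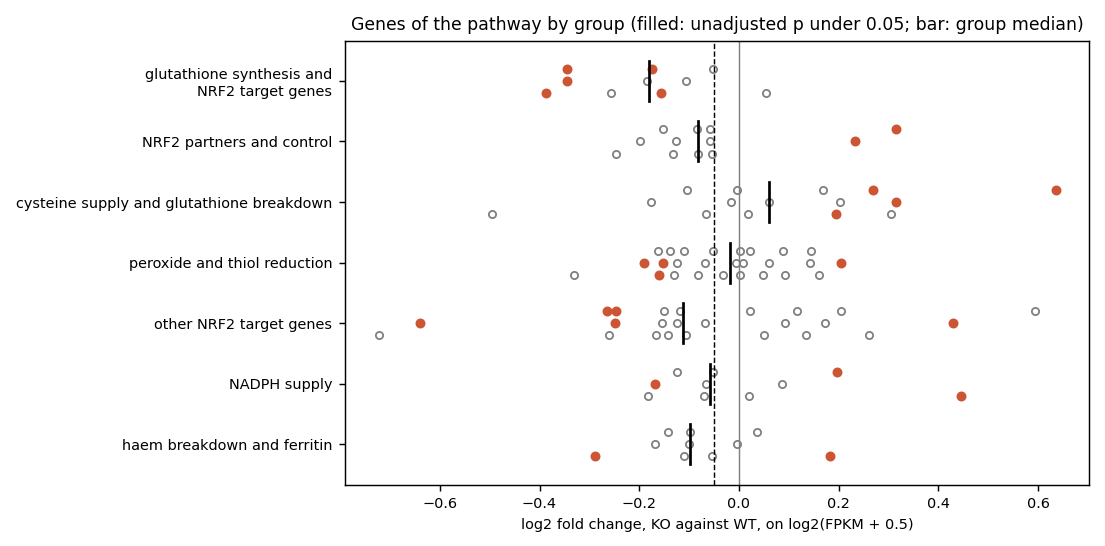
Log2 fold change (KO against WT, horizontal axis) of every tested gene of the 10 and of 6 pathway lists, with filled points at an unadjusted p under 0.05, bars at the group medians and a dashed line at the median of all genes. All 5 filled points of the top row lie below 0, and all 4 in cysteine supply and glutathione breakdown lie above it.

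Over 11185 other genes at a mean of at least 1 FPKM, those whose levels followed Gclc most closely across the 10 libraries were Igsf5 (Pearson r = 0.958), Adal (r = 0.948) and Tapt1 (r = 0.946). For Nqo1 they were Gabarap (r = 0.934), Ptpn12 (r = 0.918) and Vps25 (r = 0.916). For Hmox1 they were Ppp1r18 (r = 0.975), Map4k4 (r = 0.968) and the chemokine gene Ccl2 (r = 0.961). These are the highest of many values and describe these libraries only. Ccl2 was at 3.79 FPKM in WT replicate 2 and at most 1.24 FPKM in the other WT libraries, and Hmox1 was also highest in WT replicate 2.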

How the data were processed

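Liver RNA of 10 female mouse samples, 5 KO and 5 WT for Etnppl, was poly(A)-selected and sequenced with a directional kit, per the labels' protocols. The authors deposited FPKM for 47729 genes, rounded to 2 decimals, 1 column per library. The build is mm10 and the tools named are RSEM, STAR, DESeq, DESeq2 and R 4.0.2, per the submitters' processing notes; no source used here states their roles, filters, annotation or strand setting. The table has 2 further columns without name or values, not used here.

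Depth was estimated from genes with 1 transcript of 350 to 1000 bases, by fitting fragment number and length so that low values became whole fragments; 92.8% to 95.3% of these values came within 0.1 fragment of a whole number. Because FPKM are not counts, count models were not used. The test was limma 3.58.1 in R 4.3.3 on log2(FPKM + 0.5), over the 12395 genes averaging 0.5 FPKM or more (two-sided, with trend and a robust prior, p-values adjusted by Benjamini-Hochberg over all tested genes and read at 0.05). Fold changes on that scale understate changes of low genes. Exact permutation tests ran over 252 regroupings, and correlations used 100000 resamples in numpy 2.4.6.

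The genes, 6 pathway lists of 100 genes, 7 marker lists of 61 genes, tests and alternatives were chosen with earlier results of these data known. Named are Etnppl, the 10 genes, up to 4 genes of lowest p per pathway list, the highest marker genes and the 3 genes most like Gclc, Nqo1 and Hmox1, passing over clone names. Marker genes other than Alb and Apoa1 are in the closing section. Genes overlapping a gene of the 10 are named too. Refits changed 1 choice at a time: the pseudocount (0.1 or 1), the filter (none or a mean of 2 FPKM), the scaling (median-of-ratios, quantile, fixed sum), the prior (without trend and robust), array weights, a replicate block, and each library left out. The test was checked on simulated data. Coordinates are from GENCODE M21 (GRCm38, the assembly of mm10). Promoter sequences are from RefSeq on GRCm38.p6.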

Additional observations from a re-analysis of the deposited data

Results flagged for a closer look

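In 9 of 120 groups of 5 libraries looked at, 1 library stood apart from the other 4 by Dixon's criterion, where chance gives about 1 in 20. Gclc in KO replicate 5 was at 97.15 FPKM, with the next KO value at 81.88 FPKM. The log2 ratio of Nfe2l2 to Keap1 in KO replicate 1 was 0.67, with the next at 0.45. KO replicate 1 also stood apart for Aldh1l1, at 287.74 FPKM above the others, and for Vps25, at 65.03 FPKM below them. Slc40a1 in KO replicate 5 was at 80.84 FPKM, with the next at 58.24 FPKM, and Blvra in KO replicate 2 was lowest at 5.19 FPKM. WT replicate 2 was highest for Dcn at 152.23 FPKM, for Hba-a2, 1 of a pair of near-identical globin copies, at 278.44 FPKM and for Ccl2 at 3.79 FPKM. WT replicate 2 is also the library that sets the WT mean of Hmox1, and the share of red cells or other cells in that liver sample was not measured.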

How the results depend on the processing

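In 20 refits each of the 10 genes kept its direction and 0 passed an adjusted p of 0.05. With 4 genes higher and 4 lower past adjusted p among all genes, array weights gave 7 and 11, quantile normalization 7 higher, a pseudocount of 0.1 and the fit without trend and robust prior 2 higher each, no filter 2 lower, and leaving out 1 library 2 to 9 in either direction. Higher and lower genes at an unadjusted p under 0.05 numbered 644 and 642 with median-of-ratios scaling and 645 and 679 with quantile normalization, against 334 and 1124. Genes without overlap, 72 higher and 274 lower, became 152 and 130 and 149 and 138 under these scalings, and 92 to 166 and 337 to 495 without 1 library. Of the 10 genes, 3 had an unadjusted p under 0.05 with median-of-ratios, quantile or fixed-sum scaling and 3 to 6 without 1 library; 2 did not overlap with fixed-sum scaling and 1 to 3 without 1 library (3 without KO replicate 2 or WT replicate 2). Groups that do not overlap still do not when 1 library is left out, so counts without overlap cannot then fall, except through the filter. The cause of the other shifts was not tested. Same-numbered KO and WT libraries correlated at -0.0246 to 0.204, and differently numbered ones at -0.218 to 0.157. Of 10 libraries, 5 correlated best with their own number, each among 5 of the other genotype. That is more than an even draw gives, and it does not settle whether the numbers mark pairs. The main tests did not take the numbers as pairs, because the labels do not say that they are. With a replicate block, 2 genes were lower past adjusted p, 0 of the 10 genes passed, and the log2 ratios of Gclc to Gclm (-0.20) and Nfe2l2 to Keap1 (-0.29) had an exact p of 0.0625, the smallest that 5 pairs allow. Several marker genes with log2 fold changes near 0 reversed. Clec4f ran from -0.12 to 0.00997 without 1 library. Reln was 0.0158 with median-of-ratios, 0.0113 with quantile, and -0.0824 to 0.00832 without 1 library. Spp1 was 0.00318 with array weights, 0.0278 with median-of-ratios, 0.0175 with quantile, and -0.0717 to 0.0768 without 1 library. Hbb-bs was 0.00631 with array weights, 0.0359 with median-of-ratios, and -0.0664 to 0.112 without 1 library. Hba-a2 was 0.0143 with array weights, 0.0440 with median-of-ratios, 0.00334 with fixed-sum scaling, and -0.0804 to 0.152 without 1 library. Sox9, Cd79a and Ccl2 had no value with the filter at a mean of 2 FPKM. Depth limits Nqo1 most among the 10 genes.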

Other observations

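For the marker lists of other liver cells, the highest genes by mean FPKM are given. C1qb and Clec4f of Kupffer cells were at 108 ± 12.6 and 81.3 ± 10.8 FPKM in WT and at 99.5 ± 16.7 and 78.7 ± 13.4 FPKM in KO (mean ± SD, 5 libraries each). Fcgr2b and Clec4g of sinusoidal endothelium were at 59.2 ± 4.35 and 53.8 ± 5.63 FPKM in WT and at 55.2 ± 3.98 and 57.0 ± 5.53 FPKM in KO. Dcn and Reln of stellate cells were at 126 ± 14.7 and 22.7 ± 1.45 FPKM in WT and at 115 ± 4.33 and 22.2 ± 2.20 FPKM in KO. Spp1 and Sox9 of cholangiocytes were at 23.3 ± 1.74 and 1.11 ± 0.354 FPKM in WT and at 23.2 ± 3.69 and 0.836 ± 0.197 FPKM in KO. Ptprc and Cd79a of lymphocytes were at 5.56 ± 1.48 and 2.01 ± 0.718 FPKM in WT and at 4.28 ± 0.705 and 1.57 ± 0.437 FPKM in KO. The globin genes Hbb-bs and Hba-a2, whose near-identical copies may share reads, were at 203 ± 47.3 and 184 ± 54.4 FPKM in WT and at 198 ± 17.5 and 179 ± 24.3 FPKM in KO. KO means of Sox9, Ptprc and Cd79a were 75.6%, 77.0% and 77.9% of the WT means, with a spread over libraries that overlapped. None of these 12 genes passed an adjusted p of 0.05 by limma, and none had an unadjusted p under 0.05. Outside them, Cd163 of the macrophage list, named after its values were seen, averaged 7.80 ± 1.62 (WT) and 10.8 ± 2.39 (KO) FPKM (log2 fold change 0.44, unadjusted p 0.0171, limma adjusted p = 0.293).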
